A study of Mus musculus with 6 samples.

Results

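Solute carriers are membrane proteins that move sugars, amino acids, ions, metals, nucleotides, vitamins and other small molecules across the plasma membrane or organelle membranes. Here the regions of open chromatin at their genes were followed in tumor-infiltrating CD8 T cells. The members were the regions that overlap a protein-coding gene whose RefSeq symbol starts with Slc and a digit, together with the intergenic regions that have such a gene as their nearest protein-coding gene within 100 kb. Of 74686 regions in the whole table, 1381 met this rule: 895 lay inside a solute carrier gene and 486 were intergenic. They belonged to 318 of 375 solute carrier genes, in 49 of 51 numbered subfamilies, and 57 genes had no region. The median gene had 3 regions, 71 genes had 1, and Slc9a9 had the most, 37.

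The study measured chromatin accessibility by ATAC-seq, in which a transposase cuts and tags open DNA, in OT1 cells sorted as CD8+ CD45.1+ from B16-OVA-GP61 melanomas. OT1 cells are CD8 T cells with a transgenic receptor for an ovalbumin peptide, and the B16-OVA-GP61 tumor carries ovalbumin together with the GP61 epitope. In 3 libraries the tumors came from mice with no SMARTA CD4 T cells, and in the other 3 from mice with SMARTA cells, which are CD4 T cells with a transgenic receptor for GP61. All 6 libraries thus share the OT1 cells, the tumor line and the sort, and the labels used here give no mouse age, days in the tumor or pooling. The labels do not say that replicates came from separate mice, so every p-value below rests on the spread among these 6 libraries, which may be technical.

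T cells raise nutrient uptake when activated, and glucose, large neutral amino acids, glutamine and arginine enter through carriers that are switched on by receptor signalling. Other carriers export lactate, set cytosolic pH, move zinc and iron, or shuttle metabolites across the mitochondrial membrane. Many solute carriers are made in other tissues, such as neurons, kidney or liver, so a region inside such a gene can be open in T cells without the gene being known to act there. Open chromatin at a gene is not a measure of its RNA or of transport.

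Each library held 16595779 to 27182809 counts over all regions. The first principal component of all regions took 58.3% of the variance and set the 2 groups apart, and the second, with 19.2%, set replicate 2 with SMARTA cells (score 89.1) apart from its group mates (-72.1 and -36.6). Accessibility was also read at marker genes of the sorted cell type and of other cells. Of 6 T cell genes, 5 had regions, 99 in all. Their sum was 1210 to 1250 CPM without SMARTA cells and 1000 to 1250 CPM with them. CPM is the counts in a region scaled to the library's total as adjusted by edgeR (TMM). The 11 regions of 5 of 6 melanoma genes summed to 106 to 109 CPM without and 111 to 127 CPM with SMARTA cells. The 16 regions of 3 of 4 myeloid genes summed to 107 to 127 and 103 to 121 CPM. For the 7 regions of 2 of 4 B cell genes the sums were 34.6 to 46 and 27.6 to 34.3 CPM. For the 23 regions of 4 of 4 CD4 T cell genes they were 195 to 235 and 245 to 261 CPM. A sum grows with the number of regions, so sums of different lists do not show how pure the cells were. The defining genes Tyr, Lyz2, Cd79a and Ms4a1, and Trac among the T cell genes, had no region assigned. The CD4 T cell sum was higher with SMARTA cells in every library, but the genes of that list differed. All 4 opened regions of the list were at Cd40lg, which also had 1 closed of 14. Cd4 had 1 closed of 3 regions (log2 fold -1.21 ± 0.28, SE, edgeR adjusted p = 0.016), lost without replicate 2 (or 3) lacking SMARTA cells. Zbtb7b and Foxp3 had none called. The part of CD4 T cells in the results below was not tested. In bulk cells, a region open in fewer cells and a region less open in each cell cannot be told apart.

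More solute carrier regions lost accessibility than gained it when SMARTA cells were present, as in the table as a whole. By edgeR's quasi-likelihood test with Benjamini-Hochberg adjustment over all 74686 regions, 54 of the 1381 regions were opened (adjusted p under 0.05 and higher with SMARTA cells) and 122 were closed (lower), while 1205 did not pass. That is 3.91% opened beside a background of 4.68% over all regions, and 8.83% closed beside 10.4%. At 2-fold or more, 9 regions were opened (background 1.17%) and 101 closed (background 8.29%). The members' shares were thus near or under the background in both directions, and their median log2 fold was 0.02 beside 0.01 over all regions.

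Called regions differed in how open they were. Opened regions had a median accessibility of 4.08 log2 CPM and a median log2 fold of 0.72, whereas closed regions had a median of 1.4 log2 CPM and a median log2 fold of -1.43. Closed regions lay at 61 genes with no opened region, opened regions at 27 genes with no closed one, and 13 genes had both. The remaining 217 genes with a region had neither. In the authors' peak lists, called for each library by itself, 43 of 54 opened regions held a peak in all 6 libraries and 5 held one in every library with SMARTA cells and in none without. Of the 122 closed regions, 28 held a peak in all 6 libraries and 39 in every library without SMARTA cells and in none with them. Among the 1205 that did not pass, 746 held a peak in all 6, 11 only in the 3 without and 10 only in the 3 with SMARTA cells. Peaks and counts come from the same libraries, so a split of peaks between groups is tied to the calls. It is no separate support, here or at the single regions below. Libraries differed in their peak lists: of all regions, 80.5%, 90.7% and 90.2% held a peak without SMARTA cells. With SMARTA cells 86.3%, 69.5% and 84.1% did, and the part of this difference in the counts above was not tested.

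**Figure D1:**
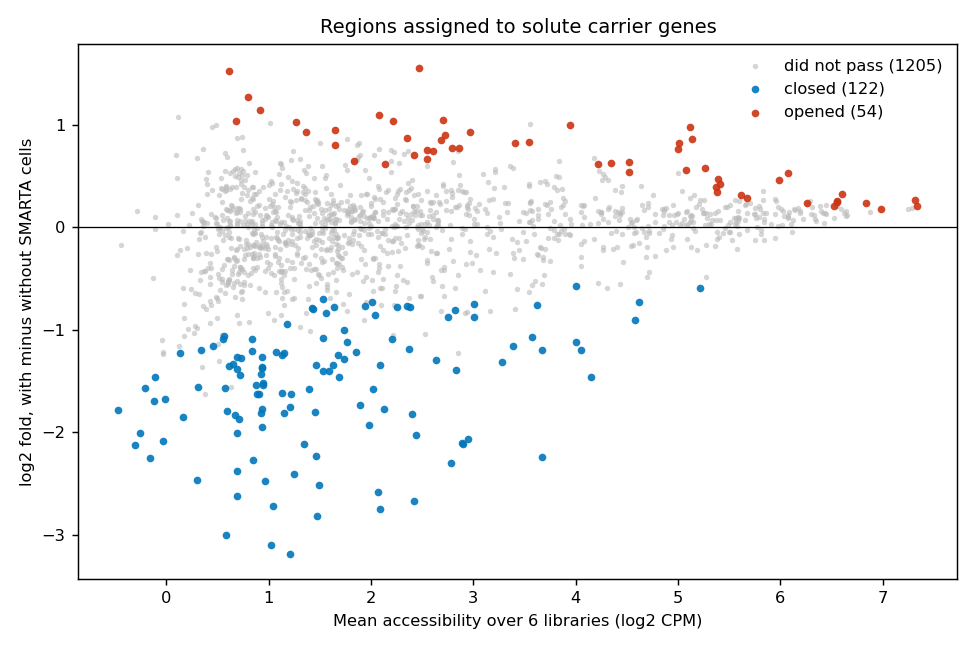
Log2 fold (with minus without SMARTA cells, y axis) against mean accessibility over 6 libraries (log2 CPM, x axis) for the 1381 regions at solute carrier genes, 1 point a region. The 122 closed regions (blue) sit mostly at low accessibility with large folds, and the 54 opened regions (red) reach higher accessibility with smaller folds.

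The counts moved with single libraries. Without replicate 3 with SMARTA cells, 27 regions were opened and 68 closed. Without replicate 2 lacking SMARTA cells the counts were 23 and 77, without replicate 1 of that group 33 opened, and without replicate 3 of it 20 opened. A total of 65 of the 122 closed and 13 of the 54 opened regions passed in each of the 6 leave-one-out fits.

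Regions at the start of a solute carrier gene were assessed separately, because the RefSeq promoter table for GRCm38.p6 gives their sequence. The table holds promoters of 290 of the 375 genes, some with several starts, and every distance from a start given below is to the nearest of a gene's starts in it. A region overlapped its own gene's promoter window (250 bases before to 50 bases after the start) in 144 cases, at 141 genes. Of these, 9 were opened (6.25%, beside 6.48% of all regions that overlap any promoter window) and 5 were closed (3.47%, beside 2.34%). The opened start regions belonged to Slc25a28 (mitoferrin 2, a mitochondrial iron importer), Slc35a5 and Slc35e1 (nucleotide sugar transporter family), Slc20a1 (the phosphate importer PiT1), Slc35c1 (the Golgi GDP-fucose transporter), Slc38a9 (the lysosomal arginine sensor of mTORC1), Slc30a5 and Slc39a10 (zinc transporters) and Slc9a3r1. The last is named for the exchanger it binds: its product NHERF1 is a scaffold protein and not a carrier. The closed start regions belonged to Slc9b2 (a sodium/proton exchanger), Slc35f5, Slc26a10, Slc2a13 (a proton/myo-inositol cotransporter) and Slc25a13 (citrin, the aspartate/glutamate carrier).

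The 250 bases upstream of the start are shown for the members whose start region was called and whose upstream stretch holds the E-box CACGTG, the core site of MYC, MAX and related factors, and for Slc9b2, whose closed start region had the smallest adjusted p. Capitals mark CACGTG and, in Slc25a13, also the AP-1 letters TGANTCA, which overlap the E-box there. All other bases are in lower case, each runs 5′ to 3′ on the gene's strand, and the gene starts right after the last base.
Slc20a1 (chr2:129198523-129198772, plus strand, opened): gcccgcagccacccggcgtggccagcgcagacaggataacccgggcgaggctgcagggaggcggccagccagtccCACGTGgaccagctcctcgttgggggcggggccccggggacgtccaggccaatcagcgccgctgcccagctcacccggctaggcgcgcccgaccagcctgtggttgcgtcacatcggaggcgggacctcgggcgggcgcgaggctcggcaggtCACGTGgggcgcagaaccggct
Slc35a5 (chr16:45158674-45158923, minus strand, opened): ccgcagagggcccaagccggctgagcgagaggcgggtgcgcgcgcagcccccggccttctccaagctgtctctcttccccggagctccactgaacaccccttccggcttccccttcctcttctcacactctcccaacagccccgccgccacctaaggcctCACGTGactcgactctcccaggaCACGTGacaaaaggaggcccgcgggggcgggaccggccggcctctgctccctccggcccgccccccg
Slc30a5 (chr13:100833428-100833677, minus strand, opened): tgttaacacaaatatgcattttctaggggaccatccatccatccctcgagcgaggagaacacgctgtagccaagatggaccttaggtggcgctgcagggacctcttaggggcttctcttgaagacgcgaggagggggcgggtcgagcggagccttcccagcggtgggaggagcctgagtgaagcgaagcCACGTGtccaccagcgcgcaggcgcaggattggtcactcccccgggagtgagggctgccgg
Slc25a13 (chr6:6217174-6217423, minus strand, closed): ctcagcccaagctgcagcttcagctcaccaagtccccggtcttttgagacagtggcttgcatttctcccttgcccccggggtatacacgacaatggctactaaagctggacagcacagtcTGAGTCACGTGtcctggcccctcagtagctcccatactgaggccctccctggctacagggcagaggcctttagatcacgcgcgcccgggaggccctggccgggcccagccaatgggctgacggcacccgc
Slc9b2 (chr3:135307450-135307699, plus strand, closed): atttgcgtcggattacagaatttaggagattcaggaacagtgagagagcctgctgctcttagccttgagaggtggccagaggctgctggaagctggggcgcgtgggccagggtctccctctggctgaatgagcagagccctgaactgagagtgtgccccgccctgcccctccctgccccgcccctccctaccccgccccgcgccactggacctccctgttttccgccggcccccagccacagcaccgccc

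The E-boxes begin 175 and 22 bases before the start in Slc20a1, 90 and 67 bases before it in Slc35a5, 61 in Slc30a5 and 125 in Slc25a13. CACGTG, which reads the same on both strands, was found in 41 of 368 upstream stretches of solute carrier genes (11.1%), 1410 of 21263 stretches of protein-coding genes (6.63%) and 1978 of all 32851 (6.02%). The AP-1 letters TGANTCA, searched on both strands, were in 22 of the 368 (5.98%), in 6.13% of protein-coding genes' stretches and in 6.75% of all. TGATGNAA, the amino acid response element searched on both strands, was in 10 of the 368 (2.72%), 3.18% of those of protein-coding genes and 3.45% of all. Among the genes with a called start region, only the stretch of Slc26a10 held it. That stretch (chr10:127180583-127180832, minus strand) overlaps the closed region only at its edge, as the region ends at 127180596. The element begins 46 bases before the start and lies outside the closed region. The metal response element core TGCNCNC was in 179 of the 368 (48.6%), in 46.9% of those of protein-coding genes and in 44.4% of all. These are matches of letters and do not show that a factor was bound.

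The opened start regions were among the most accessible of the table and changed little. The Slc20a1 start region had 6.34, 6.44 and 6.53 log2 CPM without SMARTA cells and 6.78, 6.88 and 6.62 with them. Its log2 fold was 0.32 ± 0.08 (SE, edgeR adjusted p = 0.021), and the groups did not overlap. The Slc25a28 start region had 7.15, 7.20 and 7.19 log2 CPM without and 7.40, 7.56 and 7.40 with SMARTA cells, a log2 fold of 0.27 ± 0.06 (SE, edgeR adjusted p = 0.0099). Of the 9, this was the one that passed in every leave-one-out fit: Slc20a1 lost its call without replicate 1 (or 2) lacking SMARTA cells, up to an edgeR adjusted p of 0.071. With a scaling that follows accessibility (loess offsets), 0 of the 9 passed and the folds of Slc39a10 and Slc9a3r1 turned to -0.01, while 5 of 5 closed start regions passed.

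At closed starts the changes were larger. The Slc9b2 start region had 5.03, 4.96 and 5.13 log2 CPM without and 4.52, 3.79 and 4.03 with SMARTA cells, so that every library with SMARTA cells was below every library without. The log2 fold was -0.90 ± 0.18 (SE, edgeR adjusted p = 0.0082). Of the 5 closed start regions, this was the 1 whose call held in each leave-one-out fit. For Slc25a13 the 6 values were 4.40, 4.23 and 4.23 without and 3.79, 3.72 and 3.66 with SMARTA cells, a log2 fold of -0.57 ± 0.15 (SE, edgeR adjusted p = 0.031). This call was lost without replicate 3 with SMARTA cells and without each of the 3 libraries lacking them in turn, with adjusted p up to 0.11.

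By substrate group, shares called lay around the background in most of the 13 groups, and 2 stood at the ends. Regions of vesicular and lysosomal organic anion and amine carriers (Slc17 and Slc18) had the highest closed share, 12 of 52 (23.1%). Those of phosphate and magnesium carriers (Slc20, Slc34 and Slc41) had the highest opened share, 4 of 33 (12.1%), and none closed. Both groups rest on few genes: without Slc17a6 the vesicular group had 4 closed and 1 opened of 31 regions at 8 genes. Without replicate 3 with SMARTA cells 6 vesicular regions were closed, and 8 without replicate 2 (or 3) lacking them. Of phosphate and magnesium regions 1 was opened without replicate 2 lacking SMARTA cells, 2 without replicate 1 (or 3) lacking them or replicate 3 with them, and 6 without replicate 2 with them.

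**Figure D2:**
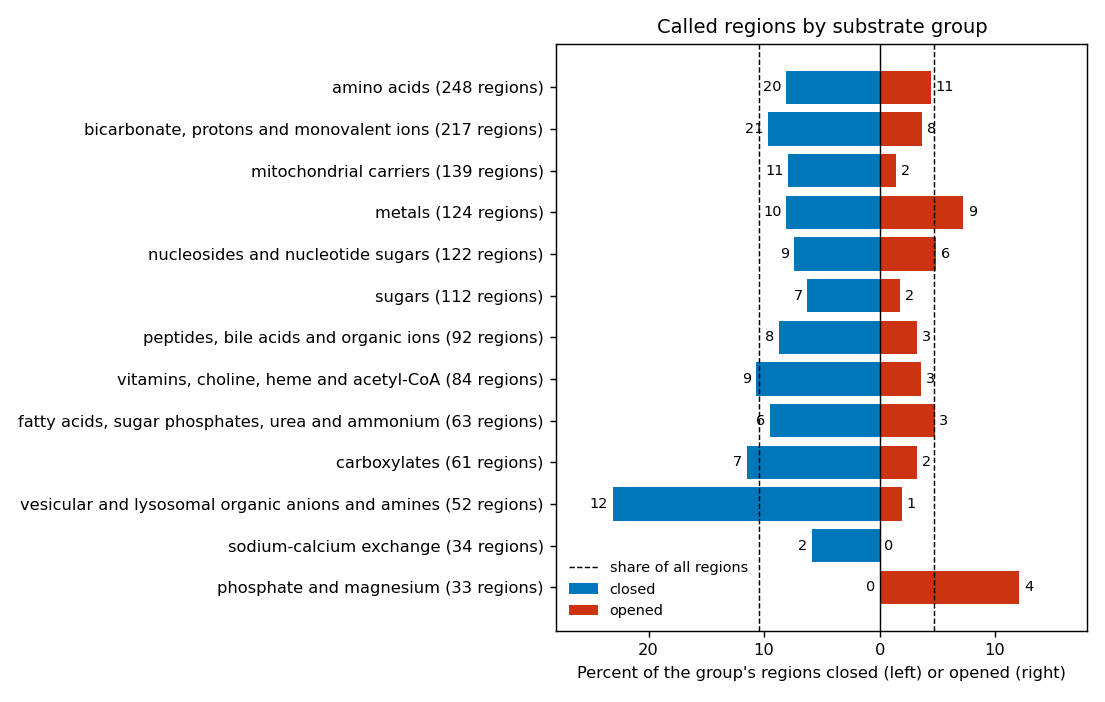
Percent of regions closed (blue, to the left) and opened (red, to the right) in each of 13 substrate groups, with the number of called regions at the bar ends. Dashed lines mark the share over all 74686 regions (10.4% closed, 4.68% opened); the vesicular group reaches 23.1% closed and the phosphate and magnesium group 12.1% opened.

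Sugar carriers gave 2 opened and 7 closed of 112 regions. Both opened regions belong to Slc2a1, which encodes GLUT1, the glucose carrier that T cells raise on activation. The one with the smaller p (chr4:119127140-119127540, inside the gene, 18.4 kb from its start) had 5.96, 5.78 and 5.69 log2 CPM without SMARTA cells and 6.2, 6.37 and 6.46 with them. Its log2 fold was 0.53 ± 0.09 (SE, edgeR adjusted p = 0.0045), with no overlap between groups and a call that held in each leave-one-out fit. The start region of Slc2a1, at a mean of 6.64 log2 CPM its most accessible, had a log2 fold of 0.11 ± 0.06 (SE, edgeR adjusted p = 0.27). None of the 15 regions of Slc2a3, which encodes the high-affinity glucose carrier GLUT3, passed: its most accessible region (chr6:122810790-122811190) was 0.19 ± 0.06 higher on the log2 scale (SE, edgeR adjusted p = 0.052), and leaving out 1 library brought at most 1 region of the gene past the threshold. A closed region nearest to Slc45a1, a proton-linked sugar carrier of the brain, lay 73.3 kb from that gene (chr4:150725474-150725874), with 2.16, 2.42 and 1.78 log2 CPM without and 0.01, 0.07 and -0.70 with SMARTA cells. The log2 fold was -2.47 ± 0.29 (SE, edgeR adjusted p = 0.00062). The second Slc2a1 region, with a log2 fold of 0.80, lost its call without replicate 3 with SMARTA cells and without each library lacking them. Over the sugar carriers, 1 region was opened without any 1 of the libraries lacking SMARTA cells and 6 without replicate 2 with them. Closed regions numbered 2 without replicate 2 lacking SMARTA cells and 3 without replicate 1 (or 3) of that group or replicate 3 with SMARTA cells.

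Amino acid carriers had the most regions, 248, of which 11 were opened and 20 closed. Those counts fell to 5 or 6 opened without any 1 of the libraries lacking SMARTA cells or replicate 3 with them, and to 9, 10 and 11 closed without replicate 3 with SMARTA cells and replicates 3 and 2 lacking them. The carriers known from activated T cells differed among themselves. At Slc7a1, which encodes the arginine and lysine carrier CAT1, 2 of 14 regions were closed. The first (chr5:148373276-148373676, inside the gene, 19.1 kb from its start) had 2.40, 2.97 and 3.11 log2 CPM without and -0.23, 0.62 and -0.02 with SMARTA cells. It was 7.03-fold less accessible with SMARTA cells, a log2 fold of -2.81 ± 0.29 (SE, edgeR adjusted p = 0.0004). The Slc7a1 start region, at a mean of 6.65 log2 CPM, had a log2 fold of 0.12 ± 0.07 (SE, edgeR adjusted p = 0.31).

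Slc38a1 and Slc38a2, neighbouring genes for the glutamine and neutral amino acid carriers SNAT1 and SNAT2, each had 2 opened regions, and Slc38a1 also had 1 closed. One opened region of each held in every leave-one-out fit. The others, with log2 folds of 0.64 and 0.21, passed in 1 of the 6, without replicate 3 with SMARTA cells at Slc38a1 and without replicate 1 with them at Slc38a2, and were lost under loess scaling. The closed one, at -1.12, was lost without replicate 3 with SMARTA cells and without each library lacking them. The region with the smallest p nearest to Slc38a2 lay 71.0 kb from it (chr15:96770767-96771167) and was weak: 0.36, -0.50 and -0.19 log2 CPM without SMARTA cells against 1.12, 1.35 and 1.52 with them. The authors' lists hold a peak there in all 3 libraries with SMARTA cells and in none without. This was a log2 fold of 1.52 ± 0.30 (SE, edgeR adjusted p = 0.0077). At Slc38a1 a region inside the gene (chr15:96638085-96638485) had 4.65, 5.17 and 5.08 log2 CPM without and 5.54, 5.52 and 5.62 with SMARTA cells, a log2 fold of 0.58 ± 0.13 (SE, edgeR adjusted p = 0.015).

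No region passed at the genes of the large neutral amino acid carrier and its partner chain. Slc7a5 (LAT1) had 3 regions, the most accessible with 6.31, 6.32 and 6.32 log2 CPM without and 6.39, 6.40 and 6.33 with SMARTA cells. Slc3a2 (CD98 heavy chain) had 9, the most accessible with a log2 fold of 0.19 ± 0.06 (SE, edgeR adjusted p = 0.077), and Slc6a6 (the taurine carrier) had 12. At Slc3a2 and Slc6a6, up to 1 opened and 1 closed region passed when 1 library was left out. Slc1a5, which encodes the glutamine exchanger ASCT2, had 1 closed of 4 regions, with a log2 fold of -0.76 ± 0.22 (SE, edgeR adjusted p = 0.041), a call lost in 5 of 6 leave-one-out fits. In those fits the edgeR adjusted p reached 0.15, and the one in which the call held was without replicate 1 with SMARTA cells.

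Slc7a15 was the one gene in which 3 or more regions were opened and none closed: all 3 of its regions passed. The strongest lay 6.6 kb outside the gene (chr12:8521465-8521865), with Rhob as the next gene at 21.5 kb. It had 4.67, 4.82 and 4.67 log2 CPM without SMARTA cells and 5.63, 5.34 and 5.73 with them, a log2 fold of 0.86 ± 0.12 (SE, edgeR adjusted p = 0.0014). Every library with SMARTA cells was above every library without, and this call held in each leave-one-out fit. The other Slc7a15 regions had log2 folds of 0.77 and 0.67, and 1 of the 3 regions passed without replicate 3 with SMARTA cells, or without replicate 2 (or 3) lacking them. A region 2.0 kb from Slc6a19, which encodes the neutral amino acid carrier of gut and kidney B0AT1, was opened as well (chr13:73702755-73703155). It had 4.23, 4.82 and 4.8 log2 CPM without and 5.52, 5.70 and 5.64 with SMARTA cells, a log2 fold of 0.98 ± 0.15 (SE, edgeR adjusted p = 0.0023).

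The Slc1 subfamily holds glutamate carriers and also the glutamine exchanger gene Slc1a5. It had the highest closed share of the subfamilies with at least 10 regions, 12 of 35 (34.3%), and 0 opened. Of those 12, 8 were inside Slc1a2, which encodes the glial glutamate carrier EAAT2. The other 6 Slc1 genes had 4 closed of 19 regions. The Slc1a2 region with the smallest p (chr2:102735198-102735598, 28.8 kb from the nearest start) had 1.65, 2.08 and 1.67 log2 CPM without SMARTA cells and -0.62, -0.10 and -0.54 with them. Its log2 fold was -2.38 ± 0.27 (SE, edgeR adjusted p = 0.00053), and the authors' lists hold a peak there in all 3 libraries without SMARTA cells and in none with them. Closed Slc1a2 regions had log2 folds from -0.87 to -2.62, and the next protein-coding gene beyond Slc1a2 was Pamr1 for 3 of them and Cd44 for 5. Without replicate 3 with SMARTA cells 4 Slc1a2 regions and 4 Slc1 regions in all were closed, and without replicate 2 (or 3) lacking SMARTA cells 4 Slc1a2 regions were. Under loess scaling the Slc1a2 region with a log2 fold of -1.20 did not pass (edgeR adjusted p = 0.093).

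Carboxylate carriers gave 2 opened and 7 closed of 61 regions. Slc16a1 (MCT1, which carries lactate and pyruvate) had none called among 10 regions, and its start region had a log2 fold of -0.10 ± 0.08 (SE, edgeR adjusted p = 0.47). Slc16a3 (MCT4, a lactate exporter) had 1 closed of 4, a weak region 7.1 kb from the gene with a log2 fold of -1.36 ± 0.26 (SE, edgeR adjusted p = 0.007). At Slc16a11, a monocarboxylate carrier gene, 5 of 6 regions were closed, 4 of them within 21.2 kb outside the gene. The strongest change there (chr11:70198321-70198721) went from 5.16, 5.01 and 4.62 log2 CPM without SMARTA cells to 3.47, 1.05 and 2.69 with them. The groups did not overlap, but replicate 2 with SMARTA cells was the lowest by more than 1 unit, and the log2 fold was -2.24 ± 0.43 (SE, edgeR adjusted p = 0.0069). Without replicate 3 with SMARTA cells, or without replicate 3 lacking them, 2 of the 5 passed, without replicate 1 with SMARTA cells or replicate 1 (or 2) lacking them 3 did, and the group had 0 opened regions without replicate 3 of either group or replicate 2 lacking SMARTA cells, and 4 closed without replicate 3 with them.

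Vesicular carriers load transmitters into synaptic vesicles. Of the 11 closed Slc17 regions, out of 43 (25.6%), 8 belonged to Slc17a6, which encodes the vesicular glutamate carrier VGLUT2 and had 21 regions. The largest fold (chr7:51665515-51665915, inside the gene, 40.9 kb from its start) was a fall from 1.47, 2.48 and 1.96 log2 CPM without SMARTA cells to -1.34, -0.10 and -1.0 with them. That is 7.97-fold, a log2 fold of -3.00 ± 0.39 (SE, edgeR adjusted p = 0.00098). The other 5 Slc17 genes had 3 closed of 22 regions. Without replicate 3 with SMARTA cells 4 Slc17a6 regions and 6 Slc17 regions in all were closed, and without replicate 1 with SMARTA cells, or replicate 2 (or 3) lacking them, 5 Slc17a6 regions were. The Slc17a6 regions with log2 folds of -0.70, -1.46 and -1.57 were lost under loess scaling (edgeR adjusted p = 0.063, 0.2 and 0.18). The first of these was also lost in every leave-one-out fit. The 1 opened region of the group lay 7.8 kb from Slc18a2, which encodes the vesicular monoamine carrier VMAT2, with a log2 fold of 1.03 ± 0.21 (SE, edgeR adjusted p = 0.0097) that lost its call without replicate 3 lacking SMARTA cells (adjusted p = 0.053).

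**Figure D3:**
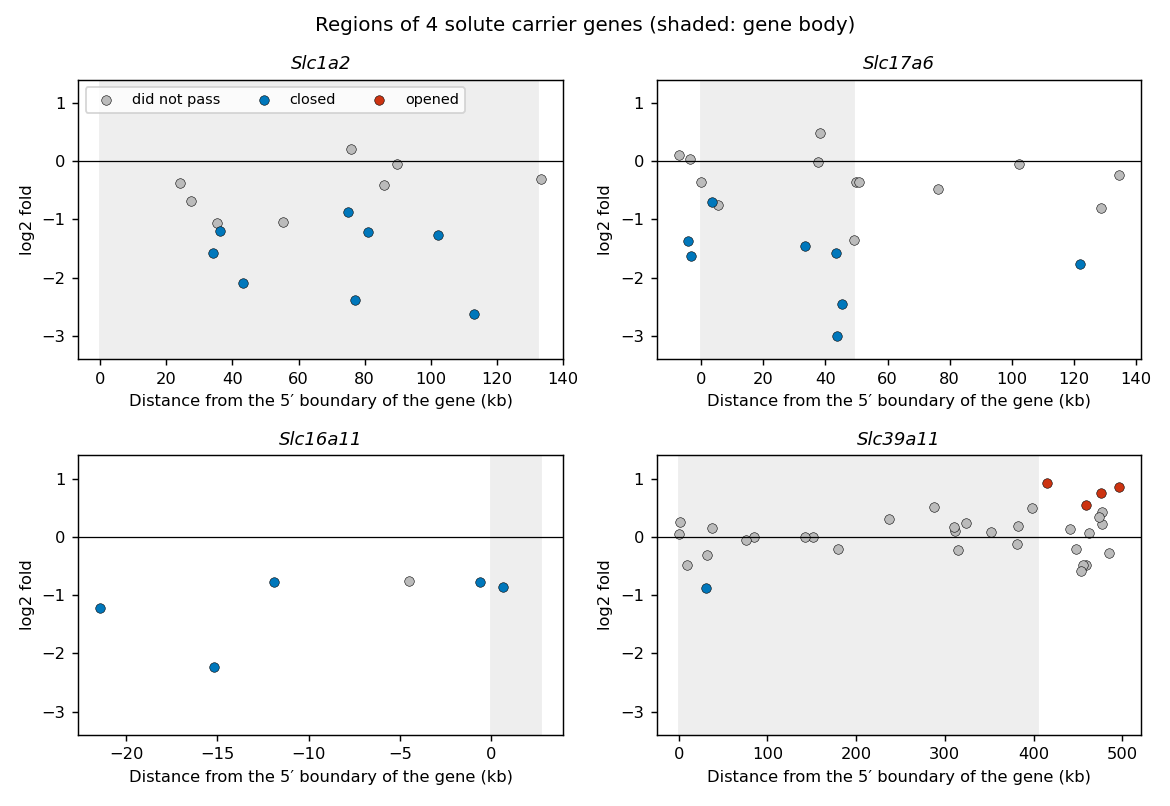
Log2 fold (y axis) of each region of Slc1a2, Slc17a6, Slc16a11 and Slc39a11 against its distance from the 5′ boundary of the gene (kb, x axis, negative upstream), with the gene body shaded. Closed regions (blue) number 8 at Slc1a2, 8 at Slc17a6 and 5 at Slc16a11, and the 4 opened regions of Slc39a11 (red) all lie beyond the end of the gene, with 1 closed region inside it.

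Carriers of bicarbonate, protons and monovalent ions had 8 opened and 21 closed of 217 regions. Genes were grouped by symbol, so the 8 include the start region of Slc9a3r1 (log2 fold 0.18) and a region of Slc4a1ap (log2 fold 0.62). The first codes for a scaffold and the second for an adaptor protein, and neither is a carrier. Slc26, which includes sulfate carriers, is in this group with 1 opened and 4 closed of 34 regions. The region with the smallest p was inside Slc4a4, which encodes the sodium bicarbonate cotransporter NBCe1 (chr5:89147184-89147584). It had 3.41, 3.15 and 3.43 log2 CPM without SMARTA cells and 0.82, 0.73 and 0.86 with them. That made it 6.0-fold less accessible with SMARTA cells, a log2 fold of -2.58 ± 0.20 (SE, edgeR adjusted p = 0.00021), with the 3 libraries of each group close together. Slc9a9, which encodes the endosomal sodium/proton exchanger NHE9, had 4 closed and 1 opened of 37 regions. Its most changed region (chr9:94952336-94952736) had 3.14, 4.18 and 3.88 log2 CPM without and 1.37, 0.56 and 1.4 with SMARTA cells, a log2 fold of -2.67 ± 0.32 (SE, edgeR adjusted p = 0.00068).

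At Slc9b2, 3 of 4 regions were closed, and the 3 stayed closed in each leave-one-out fit. One lay 0.6 kb outside the gene (chr3:135306648-135307048), beside the start region described above and 2.2 kb from Bdh2, with 1.95, 2.41 and 2.78 log2 CPM without SMARTA cells and -0.07, 0.37 and 0.04 with them. There the log2 fold was -2.41 ± 0.27 (SE, edgeR adjusted p = 0.00054). Slc4a7, a bicarbonate importer of T cells, had 0 called of 10, and Slc12a2, the sodium, potassium and chloride cotransporter NKCC1, 0 of 4. Without replicate 2 lacking SMARTA cells the group had 4 opened and 14 closed regions. The opened count was also 4 without replicate 3 lacking them, 5 without replicate 1 lacking them or replicate 3 with them, and 14 without replicate 2 with them.

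Phosphate and magnesium carriers had 4 opened regions: 2 at Slc20a1, 1 at Slc34a1 and 1 at Slc41a2. Inside Slc41a2, a magnesium carrier gene, the opened region (chr10:83330296-83330696, 7.1 kb from the start) had 4.88, 4.79 and 4.75 log2 CPM without SMARTA cells and 5.35, 5.37 and 5.36 with them. The log2 fold came to 0.56 ± 0.10 (SE, edgeR adjusted p = 0.0044), and the call held in each leave-one-out fit. The Slc20a1 regions are the start region and one 18.4 kb outside the gene with a log2 fold of 0.34. Neither passed without replicate 1 (or 2) lacking SMARTA cells. The Slc34a1 region, with a log2 fold of 0.39, was lost without replicate 3 with SMARTA cells and without replicate 2 (or 3) lacking them. Under loess scaling these 3 were lost, so that the Slc41a2 region alone of the 4 passed. Sodium-calcium exchangers had 0 opened and 2 closed of 34 regions, both at Slc24a3, a calcium exchanger gene. The one with the smaller p held its call in each leave-one-out fit and had 4.09, 4.08 and 4.15 log2 CPM without and 3.17, 2.83 and 3.11 with SMARTA cells, a log2 fold of -1.07 ± 0.17 (SE, edgeR adjusted p = 0.003). The other, at -1.23, passed in 1 of 6 leave-one-out fits, that without replicate 1 lacking SMARTA cells, in which 3 regions of the group were closed, and under loess scaling it was lost (edgeR adjusted p = 0.28).

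Metal carriers had the most even counts, 9 opened and 10 closed of 124 regions, and without replicate 3 with SMARTA cells these were 2 and 4. Without the libraries lacking SMARTA cells in turn, 3 to 5 were opened and 6 or 7 closed. ZIP family genes (Slc39), whose products bring zinc into the cytosol, had 6 opened and 2 closed of 75 regions. Of the 6, 4 were at Slc39a11, which had 35 regions. All 4 were intergenic, 10.0 to 91.1 kb from the far end of that gene and 331 to 412 kb from its nearest start, with log2 folds of 0.54 to 0.93. Inside Slc39a11 lay 1 closed region, which also overlaps Sstr2 and had a log2 fold of -0.87 (lost without replicate 3 with SMARTA cells and without replicate 2, or 3, lacking them). For the opened regions Slc39a11 was the nearest protein-coding gene, the next being Sox9 or Sstr2. Without replicate 3 with SMARTA cells 0 of the 6 ZIP regions and 0 of these 4 were opened, so both counts rest on that library. Without replicate 1 lacking SMARTA cells 2 of the 4 passed, and without replicate 2 (or 3) of that group 1 did.

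Slc11a2, which encodes the iron importer DMT1, had 1 opened and 1 closed of 7 regions. The opened one, inside the gene (chr15:100418416-100418816), had 2.19, 2.25 and 2.38 log2 CPM without SMARTA cells and 3.24, 3.10 and 3.15 with them. Its log2 fold was 0.90 ± 0.18 (SE, edgeR adjusted p = 0.0084), with no overlap between groups. Slc11a1, the phagosomal metal carrier known from macrophages, had 2 closed of 4 regions, 0 without replicate 3 with SMARTA cells or replicate 1 lacking them. Regions of the myeloid marker genes included 2 closed of 16 (12.5%, beside 10.4% of all regions), both at Itgam, while Csf1r and Adgre1 had none called, and the part of myeloid cells in the Slc11a1 result was not tested.

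Zinc exporters (Slc30) had 2 opened and 5 closed of 35 regions, or 1 opened without replicate 1 with SMARTA cells and 3 closed without replicate 3 with them. Slc30a4 changed in both directions. A region 14.4 kb outside that gene was opened (chr2:122666480-122666880), with 5.21, 5.18 and 5.09 log2 CPM without and 5.73, 5.58 and 5.57 with SMARTA cells. The change was a log2 fold of 0.47 ± 0.09 (SE, edgeR adjusted p = 0.0068). On the other side of Slc30a4, 13.7 and 16.5 kb from it, 2 regions were closed with larger log2 folds, -1.73 and -2.03. The second (chr2:122719192-122719592) had 3.38, 3.50 and 3.57 log2 CPM without and 1.70, 0.73 and 1.77 with SMARTA cells, and all 3 Slc30a4 calls held in each leave-one-out fit and under loess scaling. Slc30a1, the plasma membrane zinc exporter, had 1 closed of 3 regions, a weak one 33.9 kb away with a log2 fold of -1.09 ± 0.30 (SE, edgeR adjusted p = 0.035) that was lost without replicate 1 (or 3) with SMARTA cells and without replicate 2 (or 3) lacking them. Its start region, at a mean of 6.64 log2 CPM, had a log2 fold of 0.16 ± 0.07 (SE, edgeR adjusted p = 0.19). Slc40a1, the iron exporter ferroportin, had no region assigned.

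Mitochondrial carriers (Slc25) had 2 opened and 11 closed of 139 regions, or 6 closed without replicate 3 with SMARTA cells or replicate 2 lacking them, 1 opened without replicate 2 (or 3) lacking them, and 5 opened without replicate 1 with them. Of 7 genes with a closed region, Slc25a13 had 3 of 5 closed, its start region among them. None of the 3 passed without replicate 3 with SMARTA cells, nor without replicate 2 (or 3) lacking them, and 1 passed without replicate 1 of either group. The adenine nucleotide carrier Slc25a5 (2 regions), the carnitine/acylcarnitine carrier Slc25a20 (2) and the folate carrier Slc25a32 (1) had no called region. The citrate carrier gene Slc25a1 had none assigned.

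Nucleoside and nucleotide sugar carriers had 6 opened and 9 closed of 122 regions, and without replicate 2 (or 3) lacking SMARTA cells 1 was opened. Without replicate 1 of that group 2 were opened, and without replicate 3 with SMARTA cells 3 were opened and 4 closed. All 6 opened regions belong to Slc35, the nucleotide sugar family of the Golgi and endoplasmic reticulum. The closed region with the smallest p was inside Slc29a3, which encodes the lysosomal nucleoside carrier ENT3 (chr10:60746621-60747021, 5.8 kb from the start). It had 2.78, 3.84 and 3.58 log2 CPM without SMARTA cells and 0.82, 0.67 and 0.83 with them, a log2 fold of -2.75 ± 0.29 (SE, edgeR adjusted p = 0.00043). Slc29a1, which encodes the plasma membrane nucleoside carrier ENT1, had 1 closed of 6 regions (chr17:45596562-45596962), with a log2 fold of -1.22 ± 0.24 (SE, edgeR adjusted p = 0.0083). It lay inside the gene, 0.2 kb from the nearest of the gene's starts. The region at a different start (chr17:45595363-45595763), at 4.75, 5.02 and 4.96 log2 CPM without and 4.74, 4.46 and 4.70 with SMARTA cells, did not pass (log2 fold -0.28 ± 0.13, SE, edgeR adjusted p = 0.18).

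Peptide, bile acid and organic ion carriers had 3 opened and 8 closed of 92 regions. Of these 0 were opened and 5 closed without replicate 3 with SMARTA cells, or without replicate 2 (or 3) lacking them. Without replicate 1 of either group 5 were closed as well, with 2 opened where it was the replicate with SMARTA cells, and without replicate 2 with SMARTA cells 6 were opened. This group held the member with the smallest p of all. It lay 1.1 kb outside Slc22a15, an organic ion carrier gene, 4.8 kb from its start (chr3:101929296-101929696). It had 3.00, 2.69 and 2.50 log2 CPM without SMARTA cells and -0.51, -0.10 and -0.32 with them, and the authors' lists hold a peak there in the 3 libraries without SMARTA cells and in none with them. It was 9.15-fold less accessible with SMARTA cells, a log2 fold of -3.19 ± 0.24 (SE, edgeR adjusted p = 0.00021). In all, 4 of 9 Slc22a15 regions were closed, at least 3 of them in each leave-one-out fit. The Slc10 subfamily, which includes bile acid carriers, had 2 opened of 22 regions, both inside Slc10a7 with log2 folds of 1.04 and 1.14, and 0 without replicate 3 with SMARTA cells.

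Carriers of vitamins, choline, heme and acetyl-CoA had 3 opened and 9 closed of 84 regions. Without any 1 of the libraries lacking SMARTA cells 1 was opened, without any 1 of those with them 2 were, and 6 were closed without replicate 3 with SMARTA cells. A region 3.2 kb from Slc48a1, which encodes the heme carrier HRG1, had the largest opened fold among the 20 regions chosen by smallest p (chr15:97780761-97781161, next gene Hdac7 at 11.5 kb). It went from 1.69, 1.28 and 2.11 log2 CPM without SMARTA cells to 3.16, 3.44 and 3.16 with them. The log2 fold was 1.55 ± 0.24 (SE, edgeR adjusted p = 0.0024), and a peak was called there in the 3 libraries with SMARTA cells and in none without. Slc19a3, which encodes a thiamine carrier, had 3 of 5 regions closed (2 without replicate 3 with SMARTA cells). The first of them (chr1:83006168-83006568) had 2.74, 2.07 and 2.17 log2 CPM without and 0.15, -0.30 and -0.62 with SMARTA cells, a log2 fold of -2.72 ± 0.29 (SE, edgeR adjusted p = 0.00045). Slc23a2, the vitamin C carrier SVCT2, had 3 closed regions and 1 opened. Of the 4, 2 closed regions passed in every leave-one-out fit. The opened one was lost in 5 of the 6 fits, all but that without replicate 1 with SMARTA cells. The third closed one was lost without replicate 3 with SMARTA cells and without replicate 2 lacking them.

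The last group, carriers of fatty acids, sugar phosphates, urea and ammonium, had 3 opened and 6 closed of 63 regions, and the 6 were all in Slc37, the sugar phosphate exchangers of the endoplasmic reticulum. Slc37a2 had 4 of 9 regions closed, 3 at the lowest when 1 library was left out. Inside Slc37a1, 5.6 kb from the start (chr17:31301855-31302255), 1 region had 2.11, 1.86 and 1.8 log2 CPM without SMARTA cells and -0.23, -0.20 and -0.25 with them. Its log2 fold was -2.27 ± 0.23 (SE, edgeR adjusted p = 0.00035), with little spread within either group. A region 59.2 kb from Slc37a3 was opened, with 1.45, 1.59 and 2.04 log2 CPM without and 2.64, 2.73 and 2.83 with SMARTA cells, a log2 fold of 1.04 ± 0.21 (SE, edgeR adjusted p = 0.0089). Slc37a1 and Slc37a3 also had a region each called the other way. A second region inside Slc37a1 was opened (log2 fold 0.46), a call that held in each leave-one-out fit and under loess scaling. A second Slc37a3 region was closed (log2 fold -0.84), a call lost without replicate 1 (or 3) with SMARTA cells, without replicate 2 (or 3) lacking them, and under loess scaling. Without replicate 1 with SMARTA cells, or replicate 2 (or 3) lacking them, the group had 2 opened and 4 closed regions. None of the 14 regions of Slc27, which codes for fatty acid importers, passed.

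**Figure D4:**
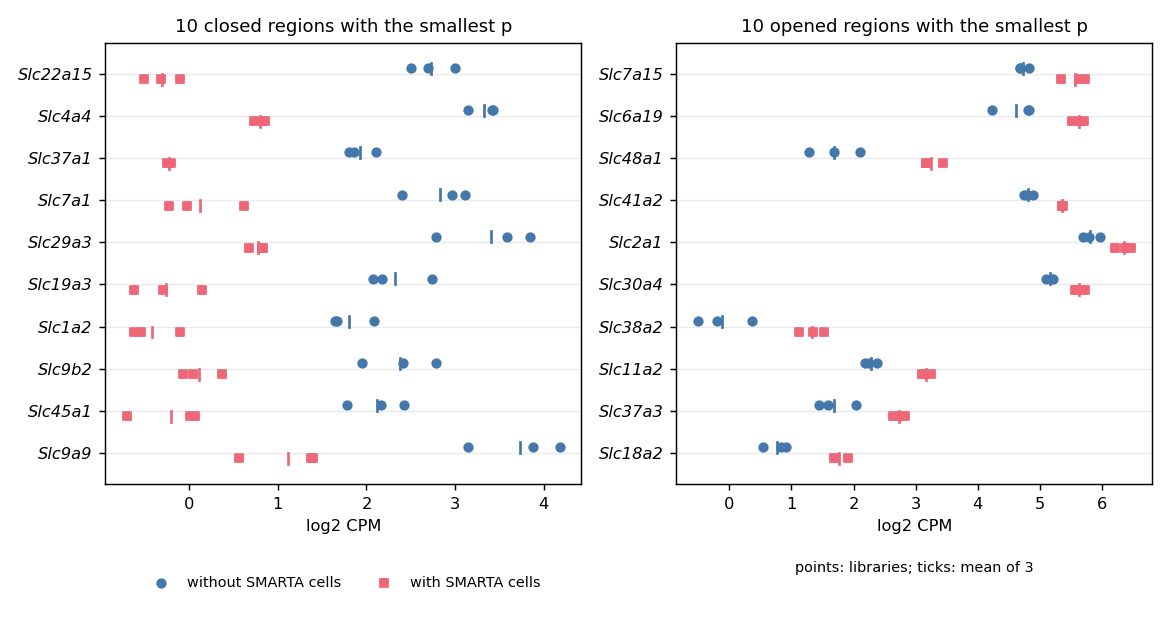
Accessibility (log2 CPM, x axis) of the 10 closed (left) and 10 opened (right) solute carrier regions with the smallest p, at most 1 a gene, in each library without (blue circles) and with SMARTA cells (red squares), with a tick at the mean of 3. The groups do not overlap in any of the 20 regions, which follows from their choice by p and is no separate result. Closed regions (log2 fold -3.19 to -2.27) moved further than opened ones (0.47 to 1.55).

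These 20 regions kept their call when 1 library was left out, except the Slc18a2 region named above, and 20 of 20 passed under loess scaling. As they were chosen by smallest p in the same libraries, this is no separate support. Among all called members, 65 of 122 closed and 13 of 54 opened passed every leave-one-out fit, and 106 and 39 passed under loess scaling. Beyond these 20 regions, subfamilies with at least 10 regions and no called one were Slc8 (11 regions, sodium/calcium exchange), Slc27 (14), Slc43 (18, including large neutral amino acid carriers) and Slc52 (10, riboflavin). At the other end, the highest opened shares were 2 of 14 for Slc20 (14.3%), 2 of 22 for Slc10 and 1 of 11 for Slc11. The highest closed shares after Slc1 were 3 of 11 for Slc11 (0 without replicate 3 with SMARTA cells) and 11 of 43 for Slc17.

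A list of 37 carriers known in T cells was then read as a whole. It held 247 regions, of which 11 were opened (background 4.68%) and 17 closed (background 10.4%), with a median log2 fold of 0.05. In it, 4 genes had opened regions only, 10 had closed regions only, 3 had both, 18 with a region had none called and 2 had no region. At the most accessible region of each of 35 genes, 3 were opened (Slc20a1, Slc38a2 and Slc39a10, with log2 folds of 0.32, 0.21 and 0.21) and 0 were closed. Under loess scaling none of the 3 passed, with log2 folds of 0.16, 0.04 and -0.01. The 32 others had log2 folds between -0.28 and 0.27. The closed regions of these genes were thus weaker sites, such as a region inside Slc39a10, a gene for a zinc importer of lymphocytes, with 1.37, 2.41 and 1.90 log2 CPM without SMARTA cells and 0.60, -0.01 and 0.52 with them (log2 fold -1.62 ± 0.31, SE, edgeR adjusted p = 0.0066). The start region of the same gene had 7.23, 7.26 and 7.22 log2 CPM without and 7.36, 7.57 and 7.39 with SMARTA cells, a log2 fold of 0.21 ± 0.06 (SE, edgeR adjusted p = 0.048) that was lost in 5 of 6 leave-one-out fits, all but that without replicate 1 with SMARTA cells.

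**Figure D5:**
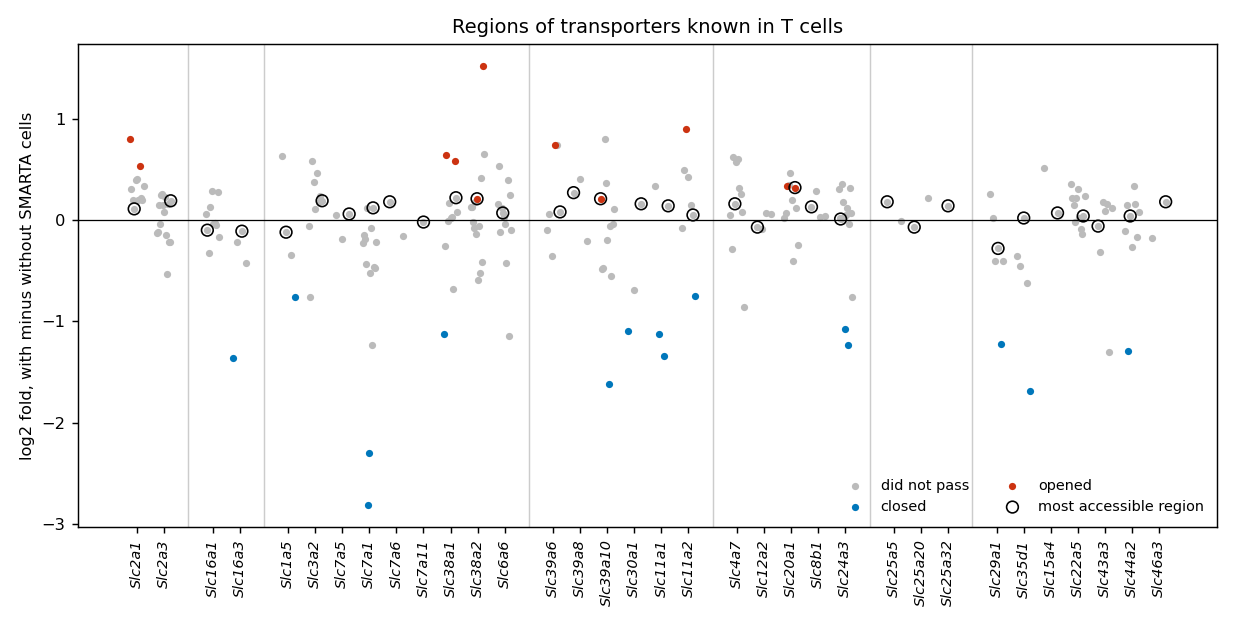
Log2 fold (y axis) of each region of the carriers known in T cells that have a region (34 genes shown, x axis, grouped by substrate), with the most accessible region of each gene ringed. The ringed regions lie between -0.28 and 0.32, while called regions (blue closed, red opened) reach further from 0.

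Carriers that do not have an Slc symbol, and partners and regulators of carriers, give the wider pathway. In a list of 18 such carriers, 16 had 84 regions, of which 18 were opened (21.4%, beside 4.68% of all regions) and 7 closed (8.33%, beside 10.4%), with a median log2 fold of 0.16. Of the opened ones, 9 were at Slco3a1, an organic anion carrier gene with 30 regions (5 at the lowest, without replicate 2 lacking SMARTA cells). The Slco3a1 region with the smallest p had 3.81, 4.15 and 4.33 log2 CPM without SMARTA cells and 5.36, 5.18 and 5.52 with them, a log2 fold of 1.25 ± 0.15 (SE, edgeR adjusted p = 0.00077). Xpr1, the phosphate exporter, had 3 opened of 11 regions, and Spns2, a sphingosine-1-phosphate exporter, 2 of 4. Without replicate 1 lacking SMARTA cells 1 Xpr1 region passed, and without replicate 1 with SMARTA cells 1 Spns2 region did. Mfsd2a, a lysophospholipid carrier, had 3 closed of 8 regions, the first with a log2 fold of -2.27 ± 0.23 (SE, edgeR adjusted p = 0.00035). The start regions of the pyruvate carrier genes Mpc1 and Mpc2 were opened with log2 folds of 0.25 and 0.27, both lost without replicate 1 (or 3) lacking SMARTA cells and, with log2 folds of 0.07 and 0.05, under loess scaling.

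In a list of 27 partners and regulators, 26 genes had 265 regions, with 17 opened (6.42%, beside 4.68% of all regions) and 33 closed (12.5%, beside 10.4%) and a median log2 fold of 0.03. Both shares were near the background. Emb, which encodes embigin, a chaperone of lactate carriers, had 4 opened of 20 regions (1 without replicate 3 with SMARTA cells). The first had 5.21, 5.41 and 5.24 log2 CPM without SMARTA cells and 5.89, 5.86 and 6.06 with them, a log2 fold of 0.65 ± 0.09 (SE, edgeR adjusted p = 0.0015). Stk39, which encodes the kinase SPAK that acts on cation-chloride cotransporters, had 8 closed of 32 regions (3 without replicate 3 with SMARTA cells). Hif1a, which encodes the hypoxia factor that drives glucose carrier genes, had 4 closed of 18, the first going from 2.08, 2.75 and 2.42 log2 CPM without SMARTA cells to -0.14, 0.44 and -0.25 with them (log2 fold -2.54 ± 0.28, SE, edgeR adjusted p = 0.00046). Myc had 3 closed of 15 regions (1 without replicate 2 with SMARTA cells).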

How the data were processed

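Processed files of 6 ATAC-seq libraries were analysed, 3 without and 3 with SMARTA cells, grouped by sample title. The deposited table holds whole-number read counts per region for 74686 regions, not normalized by the authors, and 73199 regions are 400 bases long. The authors' peak lists, made per library, give a fold enrichment (ratio), −log10 p-values, −log10 q-values and a score for each peak; here a peak counted only as present or absent where it overlaps a region. Per the submitters' processing notes, DiffBind 3.4.11, MACS2 2.1.1, Picard 2.18.9, SAMtools 1.8 and BWA 0.7.17 were used with GRCm38. How duplicates were handled and whether reads were shifted for the transposase is not given in the sources used here, and duplicates left in would raise counts.

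Genes came from the RefSeq table of GRCm38.p6. A region belongs to the gene it overlaps by at least 1 base (a solute carrier gene first, which concerns 38 regions in more than 1 gene), or else to the nearest protein-coding gene within 100 kb. This says nothing of the gene that a region acts on. At the edge of the rule, 8 members lie 80 to 100 kb away (1 opened, 2 closed) and 2 regions lie 100 to 120 kb away (0 called). Positions are printed as deposited, and exons and introns were not distinguished.

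The counts of all regions were fitted with edgeR 4.0.16 in R 4.3.3 (TMM, filterByExpr, which removed 0 regions, glmQLFit, glmQLFTest, Benjamini-Hochberg adjustment, threshold 0.05). The log2 fold is with minus without SMARTA cells, its SE the size of the fold over the root of F, and log2 CPM has a prior count of 2. The biological coefficient of variation was 18.0%. The code was tested on simulated data. Alternatives were DESeq2 1.42.0, DESeq2 size factors, total-count and loess offsets (limma 3.58.1), no filter or a mean count of at least 50, a replicate block, leaving out each library, and narrower membership. Same-numbered libraries did not deviate together (r = -0.02, -0.078 and 0.076), so the numbers were not taken to pair samples.

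The members and lists were chosen with earlier results of these data known. Named are the 10 opened and 10 closed regions with the smallest p (at most 1 a gene), genes with 3 or more regions called in 1 direction and 0 in the other, 37 T cell carriers, and subfamilies of at least 10 regions with the highest and lowest shares called. Other genes named (those called at their start, the called members of a group, Slc9a9, Slc39a11, Slc10a7, Slc34a1 and Slc23a2, and examples from the wider lists) were chosen after their values were seen. Nearby regions of 1 gene are not independent. The values of 1 gene of the T cell list are not reported here.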

Additional observations from a re-analysis of the deposited data

How the results depend on the processing

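The counts of 54 opened and 122 closed regions were 54 and 122 with DESeq2 size factors, 39 and 126 with total-count scaling, 60 and 114 with loess offsets, 54 and 131 with the DESeq2 test, and 43 and 83 of 965 regions at a mean count of at least 50. Under loess offsets 39 of the 54 and 106 of the 122 kept their call. Of 22 opened regions at 5 log2 CPM or more, 8 kept it and 2 changed sign, and of 32 below that level 31 kept it. With the replicate block the counts were 53 and 119. Leaving out 1 library gave 20 to 70 opened and 68 to 140 closed, and over all regions 1.64% to 5.70% opened and 5.90% to 11.3% closed. Limiting members to regions inside a gene left 29 opened and 76 closed of 895, by construction. Among the 110 named regions, 71 of them called, 1 reversed in any setting run: the Slc39a10 start region, at -0.01 with loess offsets. The cause was not tested. Closed regions, at a median of 1.4 log2 CPM, rest on fewer counts than opened ones, at 4.08.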
